A study of Mus musculus with 2 samples.

Results

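Transcripts of 10 enzymes of bile acid synthesis were followed in polyadenylated RNA of adult mouse liver, in 2 sequenced libraries labelled biological replicates 1 and 2. The 10 genes were chosen by symbol through their identifiers, from 43346 genes listed, and all 10 were found. They are the P450 hydroxylases of the sterol ring and side chain (Cyp7a1, Cyp8b1, Cyp27a1, Cyp7b1, Cyp39a1 and Cyp2c70) and enzymes of later steps (Hsd3b7, Akr1d1, Akr1c6 and Amacr). The mice are labelled C57BL/6J, a common inbred strain, aged 8 weeks, with liver of male and female littermates pooled, health state unknown and no treatment named. Over all 1569 genes listed on the Y chromosome, however, replicate 1 had 0 reads and replicate 2 had 1 read. The sources do not say whether the reference used for quantification held the whole Y chromosome, so the male share of that label could not be checked from these counts. The libraries carry a common donor identifier, and nothing in the labels says that separate animals were used. P-values and spreads therefore describe only how far apart 2 samples lay, and that distance may be technical. The libraries are strand-specific pairs of 76-nucleotide reads from ribosomal RNA-depleted RNA over 200 nucleotides, with spike-ins, and held 60770411 and 61688916 estimated reads in replicates 1 and 2. The design holds 1 group and no contrast between conditions. The questions it answers are how much of each enzyme mRNA adult liver carried, in which isoforms, and how far the replicates lay apart.

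Bile acids are made from cholesterol in hepatocytes. The classical route begins with hydroxylation of cholesterol by Cyp7a1 in the endoplasmic reticulum, and the alternative route with oxidation of the side chain by mitochondrial Cyp27a1, followed by Cyp7b1. Cyp8b1 adds the hydroxyl group that makes cholic acid, and in mice Cyp2c70 makes the muricholic acids. Bile acids returning from the gut repress Cyp7a1, partly through the nuclear receptor Nr1h4 (FXR) and the repressor Nr0b2 (SHP), and its mRNA cycles over the day.

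The labelled tissue was checked on marker genes. All 7 hepatocyte markers were at 1 TPM or more (a length-scaled transcript abundance) and together held 6.93% and 7.07% of TPM in replicates 1 and 2, with albumin (Alb) at 32113 and 34763 TPM and fetuin-A (Ahsg) at 14767 and 14674 TPM. Markers of other cells held far less, and the 2 with the highest mean TPM are named for each. Kupffer cell markers summed to 105.02 and 176 TPM, led by C1qa (39.6 and 65.8 TPM) and Cd5l (27.2 and 54.99 TPM). Sinusoidal endothelial markers summed to 79.6 and 104 TPM, led by Clec4g (40.96 and 49.6 TPM) and Oit3 (17.4 and 22.6 TPM). Stellate markers summed to 111 and 125 TPM, led by Dcn (63.9 and 76.3 TPM) and Colec11 (22.7 and 24.5 TPM). Bile duct markers summed to 21.2 and 18.7 TPM, led by Spp1 (16.2 and 14.4 TPM) and Krt19 (2.18 and 2.09 TPM). Lymphocyte markers summed to 4.32 and 9.09 TPM, led by Cd79a (1.63 and 4.93 TPM) and Trbc2 (1.84 and 2.15 TPM).

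The 6 hydroxylases are distant relatives that share the stretch around the cysteine that holds the heme iron. The 30 coding bases of that stretch are shown because they mark what these enzymes have in common and where Cyp8b1 departs from the rest. The cysteine codon is in capitals, the sequences are from GENCODE M21 transcripts on GRCm38, and positions are of the coding strand named:
Cyp7a1 (chr4:6268386-6268415, minus strand, exon 6 of 6): tttggatcaggagctacaataTGTcctgga
Cyp7b1 (chr3:18072634-18072663, minus strand, exon 6 of 6): tttggactcggaacaagcaaaTGTccaggg
Cyp39a1 (chr17:43731982-43732011, plus strand, exon 10 of 12): tttggaggcgggaagttccagTGTcctgga
Cyp27a1 (chr1:74737320-74737349, plus strand, exon 8 of 9): ttcggctatggggttcggtctTGCctgggt
Cyp2c70 (chr19:40153738-40156732, minus strand, across the junction of exons 8 and 9): ttctcagcaggaagaagagctTGTattgga
Cyp8b1 (chr9:121914942-121914971, minus strand, exon 1 of 1): tggggctcgggtgtttccaagTGCcccggc

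A strict form of the P450 heme-binding signature was searched for, with 4 fixed residues of which the first is phenylalanine. It was found in 5 of the 6 coding sequences. In Cyp8b1, whose coding sequence is unbroken by introns, the stretch was located by alignment to Cyp7a1. Of the 4 fixed residues 3 were present, and tryptophan (tgg) stood in place of the first. Over aligned residues of the translated coding sequences, Cyp7a1 was closest to Cyp7b1 (39.8% identity) and Cyp8b1 (36.6%), and farthest from Cyp2c70 (22.0%). Among the later enzymes, the aldo-keto reductases Akr1d1 and Akr1c6 were 59.3% identical.

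All 10 enzymes were detected at 1 TPM or more in both libraries, and together they held 0.202% ± 0.0064 of TPM (SD, n = 2). Their levels spanned more than 2 orders of magnitude, with the dehydrogenase Hsd3b7 highest and the oxysterol hydroxylase Cyp39a1 lowest. Hsd3b7 alone made up 48.9% and 48.4% of the summed TPM of the enzymes in replicates 1 and 2. The 6 hydroxylases made up 32.5% and 34.5%. The mRNAs of the 3 enzymes that hydroxylate carbon 7 (Cyp7a1, Cyp7b1 and Cyp39a1) summed to only 25.3 and 45.4 TPM, or 1.28% and 2.20% of the enzymes' TPM.

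**Figure D1:**
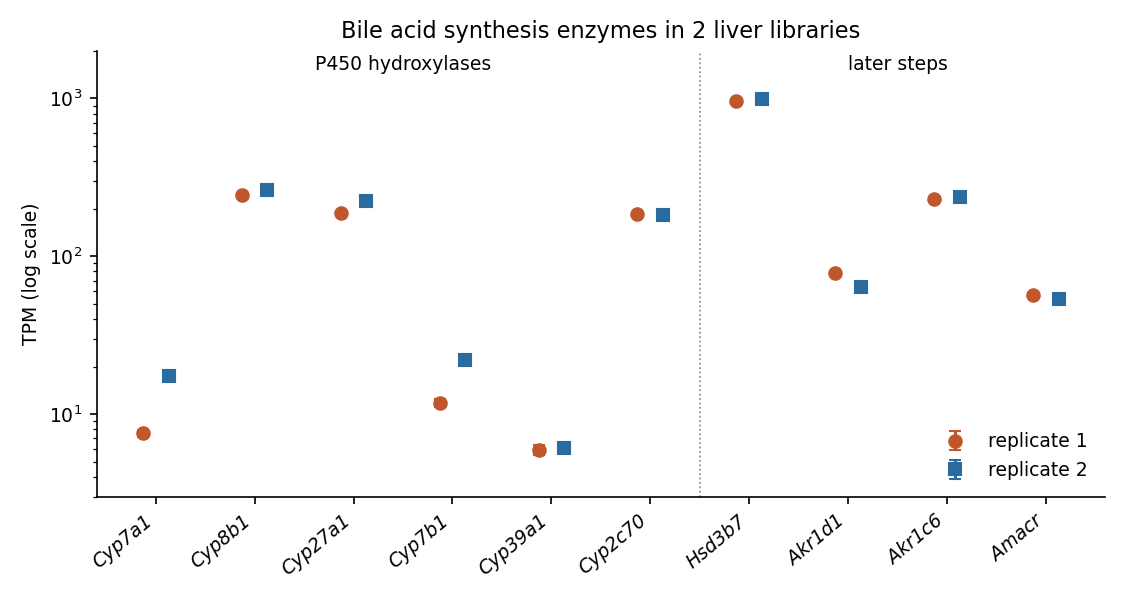
TPM of the 10 enzymes on a log axis in replicate 1 (circles) and replicate 2 (squares), with exact Poisson 95% intervals of the reads as bars, mostly smaller than the symbols. Hsd3b7 is near 980 TPM, Cyp8b1, Akr1c6, Cyp27a1 and Cyp2c70 lie between 181 and 262 TPM, and the libraries stand apart most for Cyp7a1 and Cyp7b1.

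Cyp7a1, the rate-limiting enzyme of the classical route (ENSMUSG00000028240, chr4:6265612-6275633, minus strand, GRCm38), reached 7.53 TPM in replicate 1, against 17.3 TPM in replicate 2. These values rest on 1265 and 3322 estimated reads. Exact Poisson 95% intervals of the reads, scaled to TPM, were 7.12 to 7.96 and 16.8 to 17.9 TPM and cover counting error only. The scaling weighs all reads of the gene alike. In replicate 1, however, 2 reads of the short model Cyp7a1-202 were listed as 1.03 of the 7.53 TPM. The counting error of that TPM is therefore larger than its interval shows. The intervals do not overlap, and the SD between the libraries (12.4 ± 6.94 TPM) was 55.8% of the mean. Among 21461 nuclear protein-coding genes Cyp7a1 ranked 4688th by mean TPM, well below the enzymes that act after it.

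Cyp8b1, the 12-alpha-hydroxylase (ENSMUSG00000050445, chr9:121914356-121916305, minus strand), had 245 and 262 TPM on 21008 and 22812 reads, a mean of 253 ± 12.4 TPM. It was the most abundant of the hydroxylases in both libraries. Within each library its level per length was 32.5 times that of Cyp7a1 in replicate 1 and 15.1 times in replicate 2. The SD of Cyp8b1 was 4.89% of its mean, against 55.8% for Cyp7a1.

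Cyp27a1, the mitochondrial side-chain hydroxylase (ENSMUSG00000026170, chr1:74713574-74737892, plus strand), had 187 and 223 TPM on 13763 and 16308 reads, a mean of 205 TPM with an SD of 12.2% of the mean. It exceeded Cyp7b1, the next enzyme of the alternative route, 15.9-fold and 10.1-fold per length in replicates 1 and 2. Cyp7b1 (ENSMUSG00000039519, chr3:18071950-18243338, minus strand) had 11.8 and 22.0 TPM on 1137 and 2150 reads, with Poisson intervals of 11.1 to 12.5 and 21.1 to 23.0 TPM. By TPM, replicate 1 was the higher library for 3 of the 10 enzymes, Cyp2c70, Akr1d1 and Amacr, and replicate 2 for the other 7.

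Cyp39a1, which hydroxylates the oxysterol made by Cyp46a1 (ENSMUSG00000023963, chr17:43667425-43751431, plus strand), had 5.94 and 6.06 TPM on 830 and 856 reads. Its intervals, 5.54 to 6.36 and 5.66 to 6.48 TPM, overlap almost fully. Cyp2c70, the muricholic acid-forming hydroxylase (ENSMUSG00000060613, chr19:40153353-40187333, minus strand), had 184 and 181 TPM on 13264 and 13344 reads, a mean of 182 ± 1.71 TPM. Per length it stood at 0.751 and 0.691 of Cyp8b1. Cyp39a1 and Cyp2c70 had smaller SDs relative to the mean, 1.41% and 0.938%, than the other hydroxylases.

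Hsd3b7, the dehydrogenase that oxidises the ring alcohol after hydroxylation (ENSMUSG00000042289, chr7:127800604-127803802, plus strand), had 964 and 997 TPM on 72392 and 75247 reads, a mean of 980 ± 23.1 TPM. It ranked 117th among nuclear protein-coding genes. Akr1d1, the 5-beta-reductase that bends the sterol ring (ENSMUSG00000038641, chr6:37530173-37568815, plus strand), had 77.9 and 64.1 TPM on 9154 and 7738 reads and was the only later enzyme whose SD, 13.8% of the mean, was above 5%. Per length Hsd3b7 exceeded it 12.4-fold and 15.6-fold. Akr1c6, a steroid-reducing aldo-keto reductase whose human relative AKR1C4 acts after the 5-beta-reductase (ENSMUSG00000021210, chr13:4434306-4457877, plus strand), had 230 and 235 TPM on 13184 and 13798 reads. Amacr, the racemase that turns the side chain over for peroxisomal shortening (ENSMUSG00000022244, chr15:10981756-10996626, plus strand), had 56.98 and 53.4 TPM on 6631 and 6287 reads.

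By mean TPM the order was Hsd3b7, Cyp8b1, Akr1c6, Cyp27a1, Cyp2c70, Akr1d1, Amacr, Cyp7b1, Cyp7a1 and Cyp39a1. The ranges of neighbours over the 2 libraries overlapped for Cyp7b1 and Cyp7a1 only. Within each library Cyp7b1 was the higher of these, 1.57-fold in replicate 1 and 1.27-fold in replicate 2. Cyp8b1, Akr1c6, Cyp27a1 and Cyp2c70 lay close together, each 1.09 to 1.14 times the next, with ranges that did not overlap over 2 libraries. For 9 of the 10 enzymes the deposited posterior SD of the count was 0 in both libraries, and for Hsd3b7 it was 9.57 and 3.96 reads. Reads shared with other genes thus left little uncertainty in the authors' estimates for these genes.

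Upstream sequences by RefSeq on GRCm38.p6 were at hand for 6 of the 10 genes, and not for Cyp7a1, Cyp7b1, Cyp39a1 and Amacr. The 250 bases before the RefSeq start are shown for the most abundant enzyme, the most abundant hydroxylase and the hydroxylase most even by TPM. The last, Cyp2c70, was not the most even hydroxylase by the TMM-scaled reads compared below. The RefSeq start can differ from the GENCODE gene end used for the positions above. The last 5 bases of the Hsd3b7 window and the last 47 of the Cyp2c70 window lie inside the GENCODE gene, so the TATAAA of Cyp2c70 does too. Capitals mark TATAAA or AGGTCA on either strand:
Hsd3b7 (chr7:127800359-127800608, plus strand): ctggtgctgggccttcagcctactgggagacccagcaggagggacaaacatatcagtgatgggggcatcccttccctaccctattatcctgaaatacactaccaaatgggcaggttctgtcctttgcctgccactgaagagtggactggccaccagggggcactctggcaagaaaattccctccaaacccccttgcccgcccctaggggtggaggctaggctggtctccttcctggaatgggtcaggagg
Cyp8b1 (chr9:121916306-121916555, minus strand): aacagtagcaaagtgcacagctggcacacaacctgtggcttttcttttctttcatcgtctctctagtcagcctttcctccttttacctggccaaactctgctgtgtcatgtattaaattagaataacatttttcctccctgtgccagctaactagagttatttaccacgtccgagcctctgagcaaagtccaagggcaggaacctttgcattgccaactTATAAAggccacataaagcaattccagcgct
Cyp2c70 (chr19:40187287-40187536, minus strand): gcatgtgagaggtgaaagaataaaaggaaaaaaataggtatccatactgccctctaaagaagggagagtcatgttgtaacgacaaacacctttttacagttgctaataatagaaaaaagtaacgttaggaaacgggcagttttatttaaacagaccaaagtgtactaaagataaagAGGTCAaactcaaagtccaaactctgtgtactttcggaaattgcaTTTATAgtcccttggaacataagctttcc

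TATAAA was present in 3 of the 6 windows, against 12.4% of 32851 windows of all genes. It stood in Cyp8b1 from 31 bases before the start on the gene's strand, and in Cyp2c70 from 29 bases before it on the other strand. In Akr1c6 the match lay farther from the start, from position -164 on the gene's strand. AGGTCA, the unit recognised by many nuclear receptors, was in the windows of Cyp2c70 and Akr1d1, against 4607 of the 32851 windows. CCAAT was in Cyp27a1 and Akr1c6, against 33.8% of all. The window of Hsd3b7 held none of the 9 motifs searched. No match in the 6 windows was found for CAAGGTCA or CAAGGCCA, bound by NR5A2, which 1.33% and 1.99% of all windows held, nor for GTTAAT of HNF1 (6.43% of all) or TTATGTAA of DBP (0.819% of all). The HNF4A direct repeat of AGGTCA (0.0335% of all) and the full HNF1 palindrome (0.00913% of all), which contain the shorter AGGTCA and GTTAAT, were also without a match. These are matches of letters on both strands within this window and say nothing about binding, nor about genes without a window, such as Cyp7a1.

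The leading isoform of each enzyme did not differ between the libraries, and for all 10 it was the coding model numbered 201. Cyp8b1, Cyp7b1, Cyp39a1 and Amacr are listed with 1 isoform. For the 6 with several, the share of genes that kept their leading isoform was 100%, beside 90.7% of 4107 multi-isoform genes at a mean of 10 TPM or more. Hsd3b7 and Cyp27a1 carried the largest shares of models with a retained intron.

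Hsd3b7 is listed with 13 isoforms. The coding model Hsd3b7-201 held 67.2% and 61.5% of the gene's TPM in replicates 1 and 2 (64.3% ± 4.04, n = 2). Hsd3b7-206, of 1899 bases and annotated as a retained intron, held 16.8% and 16.9%, with 162 and 168 TPM, so that this model alone was listed above Akr1d1. Hsd3b7-210, a longer retained-intron model of 2286 bases, had 42.2 and 73.9 TPM, or 5.96% and 10.2% of the gene's reads. Models with a retained intron together took 25.4% and 30.2% of the estimated reads of Hsd3b7. Reads that match several models were divided among them, and the uncertainty of that split is not given here. Of the 13, 2 models with 0 reads in replicate 2 and 2.05 and 14.5 reads in replicate 1 belong in GENCODE M21 to a read-through gene, Gm49388. An unclassified gene on the opposite strand, 9430064I24Rik, overlaps Hsd3b7 in M21 and is not among the genes listed in the tables, and the sources used here do not say whether counting used strand.

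Cyp27a1-201 held 84.2% and 82.0% of Cyp27a1 by TPM. The retained-intron model Cyp27a1-203, of 645 bases, held 14.8% and 16.6% by TPM but only 4.47% and 5.20% of the reads, since TPM divides by an effective length, here a short one of 457 and 467 bases. The leading coding models of Cyp2c70, Akr1c6 and Akr1d1 each held 95.5% or more by TPM in both libraries.

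Cyp7a1 shows how a short model can move a TPM. Cyp7a1-201, of 4172 bases, held 86.3% of the gene by TPM in replicate 1 and 97.7% in replicate 2. The rest was Cyp7a1-202, a noncoding model of 228 bases with an effective length of 39.8 and 50.0 bases, to which 2 reads and 1 read were assigned. Those few reads were listed as 1.03 and 0.41 TPM. By reads, Cyp7a1-201 held 99.8% and 99.97%. Taken alone it had 6.50 and 16.9 TPM, so the difference between the libraries was somewhat larger for the coding model (log2 ratio of replicate 1 over replicate 2 of -1.37, pseudocount 0.1 TPM, an alternative chosen after the data were seen) than for the whole gene (-1.19).

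**Figure D2:**
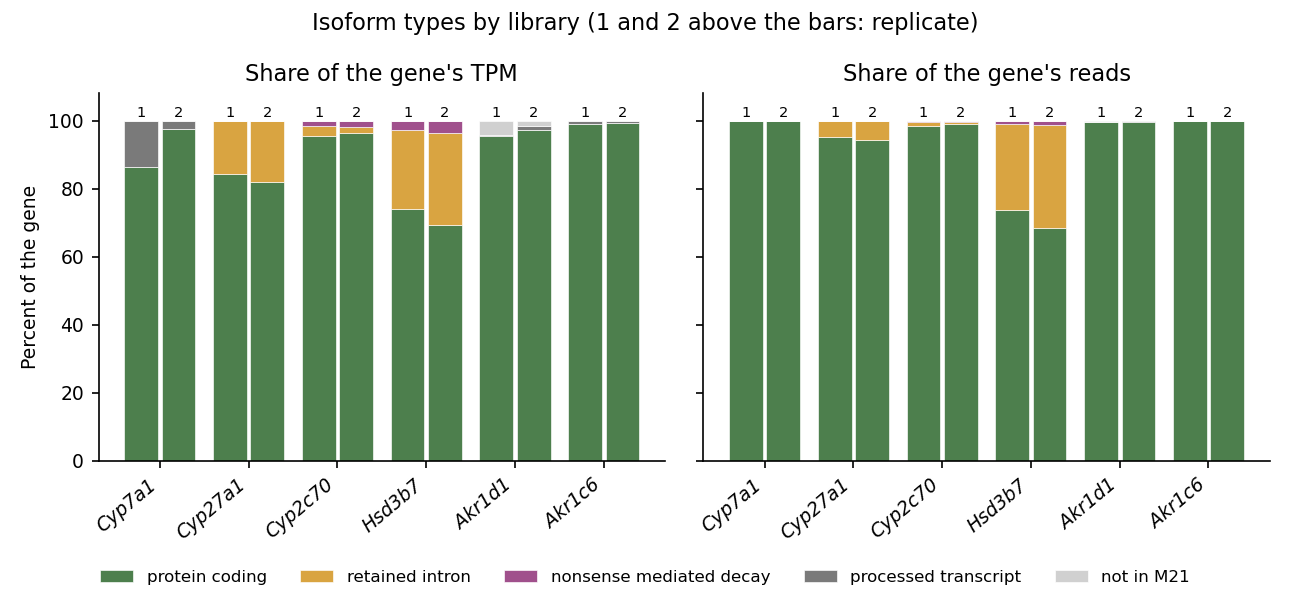
Isoform types of the 6 enzymes listed with several isoforms, as percent of the gene's TPM (left) and reads (right), with replicate 1 left of replicate 2 in each pair of bars. Retained-intron models stand out in Hsd3b7 and Cyp27a1, and the noncoding share of Cyp7a1 in replicate 1, 13.7% by TPM, shrinks to 0.158% by reads.

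The libraries were then compared with each other, by an exact conditional binomial test on TMM-scaled reads with Benjamini-Hochberg adjustment over 14533 genes. The test asks whether 2 libraries differ by more than counting error, not whether conditions do, and there is no replicate check on it. Of the 10 enzymes 8 passed, 5 higher in replicate 1 and 3 higher in replicate 2, beside 57.1% of all tested genes, 28.7% with replicate 1 the higher and 28.4% with replicate 2 the higher. With DESeq2 size factors, total reads and spike-in totals, and with no filter on counts, again 8 of 10 passed, beside 57.0%, 58.2%, 59.3% and 42.9% of genes. The sizes were mostly small. The median absolute log2 ratio of the enzymes was 0.12, beside 0.26 for all tested genes, and 2 of the 10, Cyp7a1 and Cyp7b1, lay at least 1.5-fold apart, beside 20.7% of all. Both were lower in replicate 1, beside 13.2% of all. The same count, 2, stood beside 20.7% with DESeq2 size factors, 22.7% with total reads, 23.3% with spike-in totals and 21.4% in deposited TPM. The tested genes reach down to 20 reads in both libraries together, while every enzyme had at least 830 reads in each. These shares and medians are therefore not at like depth, which bears on both the ratios and the calls. No share over genes of like depth was computed.

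Cyp7a1 was 2.38-fold lower in replicate 1 than in replicate 2, a log2 ratio of -1.25 (adjusted p = 1.1e-165 by the exact test). Of all tested genes, 5.498% lay at least as far apart. Cyp7b1 had a log2 ratio of replicate 1 over replicate 2 of -0.77, or 1.71-fold lower in replicate 1 (adjusted p = 2.7e-49 by the exact test), and 13.6% of tested genes lay as far apart. Cyp27a1 was lower in replicate 1 by a smaller step, with a log2 ratio of -0.10 (adjusted p = 9.3e-09 by the exact test).

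Akr1d1 was 1.31-fold higher in replicate 1 (log2 ratio 0.39, adjusted p = 1.6e-66 by the exact test) and Amacr 1.17-fold higher (log2 ratio 0.22, adjusted p = 2.2e-17 by the exact test). The size of the smaller ratios depended on the scaling. With total reads and spike-in totals the ratio of Amacr was 0.099 and 0.070, that of Akr1d1 0.26 and 0.24, and that of Cyp27a1 -0.22 and -0.25. These 5 enzymes kept their direction and passed under each of 4 scalings, by TMM, DESeq2 size factors, total reads and spike-in totals. Under all 4 scalings, 43.7% of tested genes passed in 1 direction, 15.6% as higher in replicate 1 and 28.1% as lower.

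For the other 5 the scaling set the sign. Hsd3b7, Akr1c6 and Cyp2c70 passed as higher in replicate 1 with TMM, with log2 ratios of 0.089, 0.079 and 0.14. With spike-in totals their ratios were -0.063, -0.073 and -0.016, and Cyp2c70 no longer passed. Cyp8b1 (log2 ratio 0.026, adjusted p = 0.0999 by the exact test) and Cyp39a1 (0.10, adjusted p = 0.229 by the exact test) did not pass with TMM and had ratios below 0 with total reads, -0.097 and -0.022. The median of all tested genes lay at -0.0034 under TMM scaling, -0.13 when total reads set the scale and -0.15 when spike-ins did, and the TMM ratios of these 5 enzymes, 0.026 to 0.14, are no larger than the shift between TMM and spike-in scaling.

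**Figure D3:**
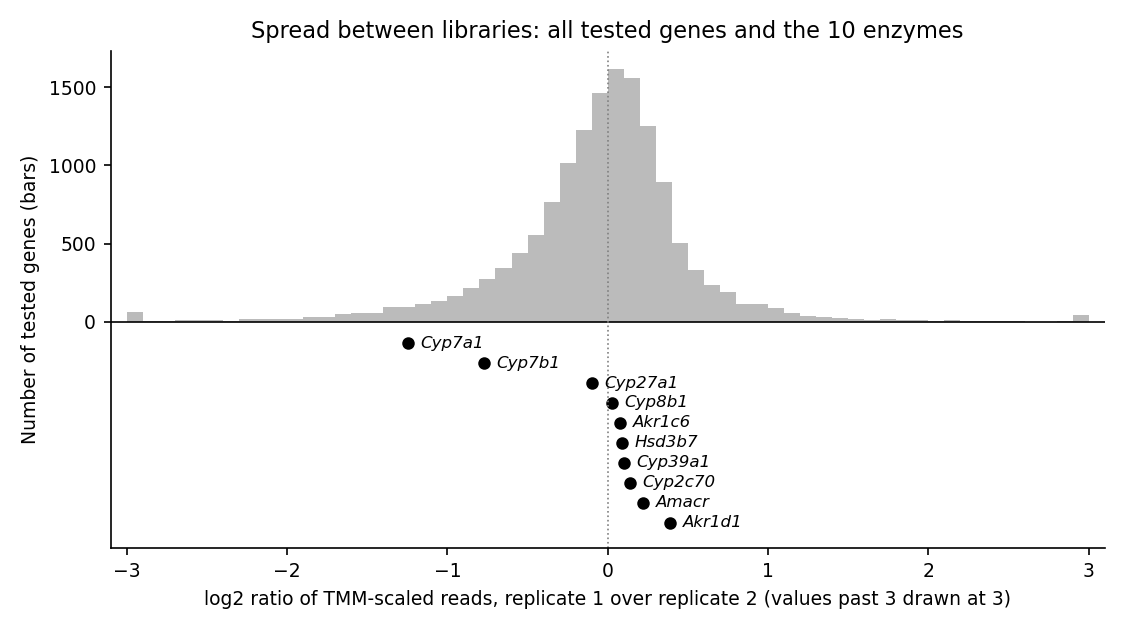
Histogram of the log2 ratio of TMM-scaled reads, replicate 1 over replicate 2, of 14533 tested genes, with the 10 enzymes as points below the axis. Cyp7a1 at -1.25 and Cyp7b1 at -0.77 lie in the left flank, and the other 8 lie between -0.10 and 0.39.

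**Figure D4:**
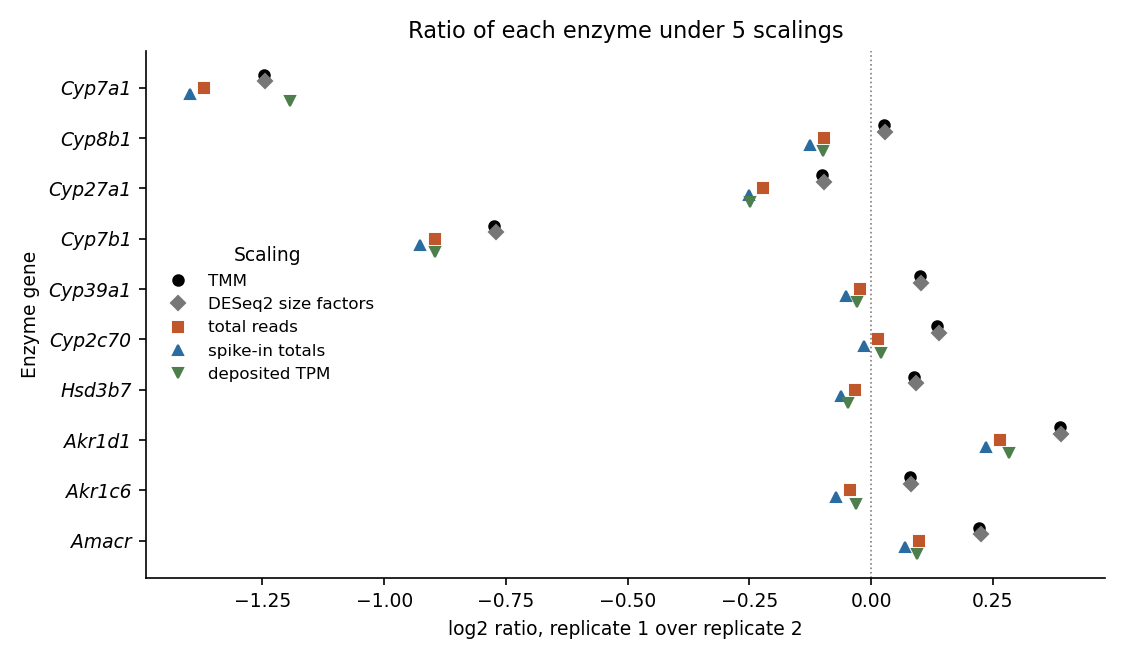
Log2 ratio of each enzyme, replicate 1 over replicate 2, under 4 scalings of reads and in the deposited TPM. Cyp7a1, Cyp27a1 and Cyp7b1 stay left of 0 and Akr1d1 and Amacr right of 0, while the points of the other 5 fall on both sides.

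Genes that act beside these enzymes were read as lists. Higher and lower in these counts mean past the exact test with TMM, beside 28.7% of all tested genes higher in replicate 1 and 28.4% lower, and, where all 4 scalings are named, beside 15.6% and 28.1%. Among 10 enzymes and carriers of side-chain shortening and conjugation, 7 were higher in replicate 1 and 3 in replicate 2, with a median log2 ratio of 0.25 beside -0.0034 for all tested genes. The bile acid ligase Slc27a5 had 1660 and 1985 TPM in replicates 1 and 2, the thiolase and sterol carrier gene Scp2 1330 and 983 TPM, and Hsd17b4, of peroxisomal beta-oxidation, 72.2 and 54.3 TPM (log2 ratio 0.55). Of these 10, 5 and 3 kept their direction under all 4 scalings.

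Genes that deliver sterol, make other oxysterols or carry electrons to P450s spanned a wide range of levels. Of 6 sterol entry and oxysterol genes, 5 had enough reads to test, with 3 higher in replicate 1 and 1 in replicate 2. Stard5 had 59.8 and 57.7 TPM and Npc1, of lysosomal cholesterol export, 24.8 and 33.9 TPM. Cyp46a1 had 2.08 and 1.74 TPM (log2 ratio 0.38), and Ch25h, the 25-hydroxylase, 4 and 7 reads. Of 6 redox partners, 3 were higher in replicate 1 and 1 in replicate 2, so that 4 of 6 passed beside 57.1% of all tested genes. They were led by cytochrome b5 (Cyb5a), at 1585 and 1241 TPM (log2 ratio 0.44), and its reductase Cyb5r3, at 363 and 440 TPM. Under all 4 scalings 1 sterol gene, Npc1, and 3 redox genes kept direction.

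Of 12 regulators, 7 were higher in replicate 1 and 4 in replicate 2, with a median log2 ratio of 0.11. Under all 4 scalings 3 and 4 of the 12 passed, beside 15.6% and 28.1% of all tested genes. Hnf4a, a hepatocyte nuclear receptor that activates Cyp7a1 and Cyp8b1, had 263 and 224 TPM. Nr0b2, the repressor induced by bile acids, had 137 and 258 TPM (log2 ratio -0.79), and Dbp, a clock output factor that binds the Cyp7a1 promoter in rodents, had 6.96 and 13.3 TPM (log2 ratio -0.85). Under each of the 4 scalings Nr0b2, Dbp, Nr1h4 and Nr1d1 were lower in replicate 1, as were Cyp7a1 and Cyp7b1. Hnf4a, Nr5a2 and Nr1i2 were higher in replicate 1 under each. A link between these regulators and the enzymes was not tested.

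Of 9 bile acid transporters, 7 were tested, 2 higher in replicate 1 and 4 in replicate 2, with a median log2 ratio of -0.030. Under all 4 scalings 0 were higher and 3 lower. The uptake transporter Slc10a1 had 911 and 1075 TPM and the exporter Abcc3 210 and 251 TPM, and both were among these 3, as was the male-biased uptake carrier Slco1a1 (3.28 and 10.99 TPM, log2 ratio -1.60). Slc51a had 0 reads in both libraries.

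Listed relatives of Hsd3b7 and of Akr1c6 were each less abundant than the enzyme they are related to. Of 5 Hsd3b relatives of Hsd3b7, 4 had enough reads to test. Hsd3b3 led with 179 and 207 TPM and Hsd3b2 followed with 11.99 and 12.98 TPM. Of the 4 tested, 2 were lower in replicate 1, Hsd3b3 and the male-biased Hsd3b5 (1.97 and 19.9 TPM, log2 ratio -3.21). Reads may be shared between these close copies. Of 7 Akr1c relatives of Akr1c6, 5 had enough reads to test. Of these, 4 were higher in replicate 1 and 1 in replicate 2, 2 and 1 of them under all 4 scalings. The Akr1c relatives were led by Akr1c14 (65.6 and 62.7 TPM) and Akr1c13 (29.9 and 26.7 TPM, log2 ratio 0.28).

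Sex-biased and clock genes were read beside Cyp7b1, which is known to be higher in male mouse liver, and Cyp7a1, which cycles with the clock. Of 9 male-biased genes, 8 were lower in replicate 1 and 1, Elovl3, was higher, all under the 4 scalings, with a median log2 ratio of -1.60 and summed levels of 319 and 571 TPM. Nudt7 had 196 and 252 TPM and Cyp2d9 85.6 and 135 TPM. Of 12 female-biased genes, 11 were higher in replicate 1 and 1, Cyp2b9, was lower, 10 and 1 under all 4 scalings, with a median of 0.97 and summed levels of 3770 and 1895 TPM. A1bg had 1879 and 355 TPM, Cyp2c69 482 and 369 TPM, and Sult2a1 70.2 and 8.64 TPM (log2 ratio 3.14). The Y-linked genes Ddx3y, Eif2s3y, Kdm5d and Uty had 0 reads in both libraries. Whether the reference held the whole Y chromosome is not stated, so these counts cannot show whether male tissue was present.

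Among 9 clock output genes, 3 were higher and 4 lower in replicate 1, all under the 4 scalings, and Tef and Ciart did not pass, with Nr1d1 at 63.2 and 91.2 TPM, Tef at 29.9 and 29.8 TPM and Per3 at 1.33 and 3.45 TPM (log2 ratio -1.03). Of 4 genes that peak at the opposite time, all 4 passed as higher in replicate 1 with TMM and 3 did so under all 4 scalings, the exception being Clock, whose TPM was lower in replicate 1, with Nfil3 at 13.6 and 6.75 TPM (log2 ratio 1.13) and Clock at 7.99 and 8.09 TPM. Markers of cell types went both ways. With TMM, Kupffer cell markers (6 of 6), endothelial markers (4 of 5) and lymphocyte markers (2 of 5) were lower in replicate 1 with 0 higher, beside 28.4% of all tested genes lower. Of 7 hepatocyte markers 6 were higher and 1 lower, 3 and 1 of them under all 4 scalings. Of 5 bile duct markers 2 were higher and 0 lower, and of 5 stellate markers 1, Lrat (6.68 and 2.97 TPM, log2 ratio 1.30), was higher and 2 were lower. None of these markers was at 0 in both libraries. In bulk tissue, fewer cells of a type and less RNA per cell cannot be told apart. The part of sex, time of day and cell makeup in the ratios of Cyp7a1 and Cyp7b1 was not tested.

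**Figure D5:**
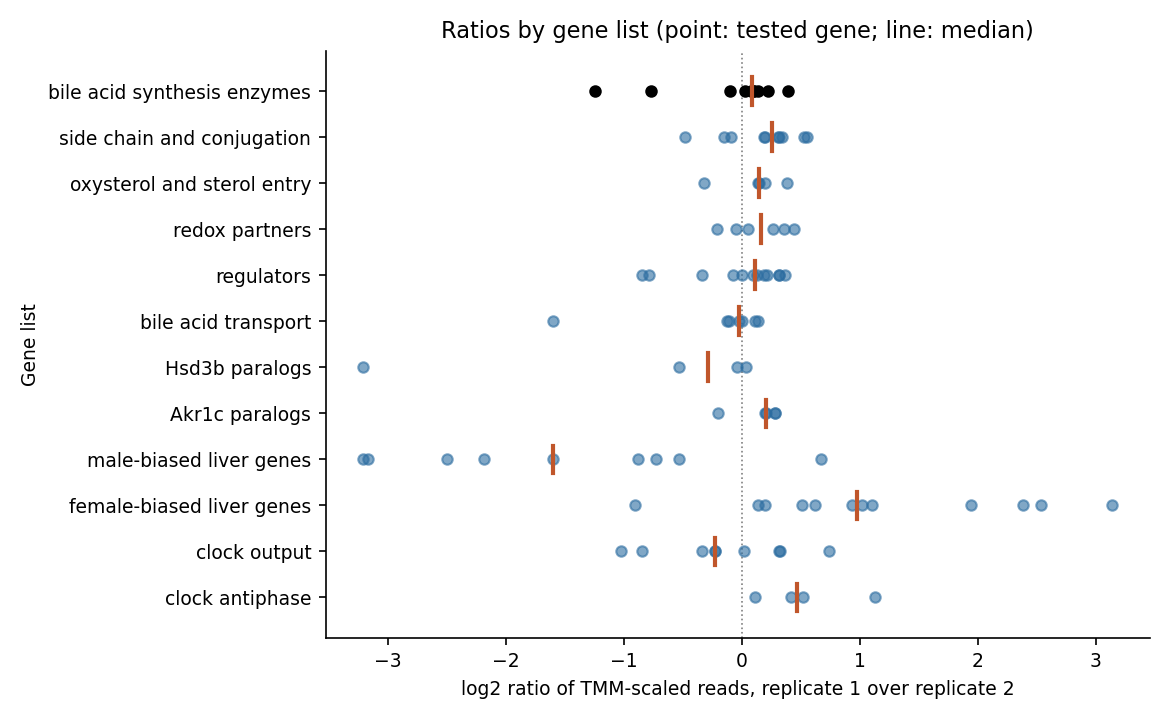
Log2 ratios of TMM-scaled reads, replicate 1 over replicate 2, of the 10 enzymes (black) and of the genes of 11 lists (blue), with medians as lines. Male-biased genes have a median of -1.60 and female-biased genes one of 0.97, while the medians of the enzymes and of the pathway lists lie between -0.29 and 0.25.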

How the data were processed

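Poly-A RNA of mouse liver was measured in 2 libraries, replicates 1 and 2 of 1 group, numbered as in the labels. The deposited gene and transcript tables were made by the authors on mm10 with GENCODE M4, per the notes deposited with the files. Which aligner and quantification tool were used is not given in the sources. The deposited estimated counts share reads that match several genes and were rounded to whole numbers for the test. The deposited TPM values are divided by effective length and scaled to a fixed sum per library, spike-ins included. The deposited FPKM values served only as an alternative. The deposited percent per isoform is its share of the gene's TPM. The authors' posterior standard deviation of the count is a score of how widely reads are shared. Series files on mm9 were not used here.

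Symbols, positions and transcript sequences came from GENCODE M21 on GRCm38, the assembly also called mm10, matched by identifier without version (42462 of 43346 genes). All 10 enzymes matched. Promoter windows came from RefSeq (GRCm38.p6). Spike-ins (96, with 1094063 and 1088802 reads in replicates 1 and 2) stayed out of gene totals. Depth limits the precision of the rarest enzyme, Cyp39a1, to counting errors of 3.47% and 3.42%. No molecular identifiers were available to count molecules, so intervals cover counting error only. They weigh all reads of a gene alike, whichever isoform the reads were assigned to.

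TMM factors came from edgeR 4.0.16 under R 4.3.3. For genes whose reads summed to 20 or more, the exact conditional binomial test was two-sided, doubling the smaller tail (scipy 1.17.1), at an adjusted p of 0.05. Log2 ratios used a prior count of 0.5. The exact test and its adjustment were run on simulated counts with known library sizes and counting error only. The scaling, isoform and sequence steps were not tested on simulated data. Alternatives were DESeq2 1.42.0 size factors, total reads, spike-in totals, no filter on counts, deposited TPM, and each library alone. Coding sequences were translated and aligned with BLOSUM62 in Biopython 1.88. No protein table was used.

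The enzymes, lists, tests and alternatives were chosen with earlier results of these data known. The text names all 10 enzymes, the 2 most abundant genes and the gene with the largest ratio of each list, and the 2 most abundant genes of each marker list. Ch25h, Slc51a, Elovl3, Cyp2b9, Ciart, Lrat, Nr1h4, Nr5a2 and Nr1i2 were named after their values were seen.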

Additional observations from a re-analysis of the deposited data

How the results depend on the processing

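Counts over the 10 enzymes held under the alternatives run. The enzymes at 1 TPM or more numbered 10 with both libraries and 10 to 10 with each left out, and 8 reached 10 TPM in both. The number past the exact test was 8 with each of the 4 scalings and with no filter on counts, though not always the same enzymes, since Cyp8b1 passed and Cyp2c70 did not with total reads and spike-in totals. The number at least 1.5-fold apart was 2 throughout, and all 10 kept their leading isoform by reads and among coding models. The enzymes' share of TPM was 0.197% to 0.206% with either library left out, and 0.207% over named genes without spike-ins.

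Of 60 single-enzyme ratios recomputed, 43 kept their sign and 17 changed it. Of the 43, 1 lost its call and 4 were counted as moved, those of Cyp27a1 and Cyp2c70 in deposited TPM and in TPM without the shortest isoforms. The count of 4 leaves out shifts of like size in scaled reads. The ratio of Cyp27a1 went from -0.10 to -0.25 with spike-in totals and with deposited TPM, and only the latter was counted. With total reads, spike-in totals, deposited TPM and TPM without the shortest isoforms, the log2 ratio became -0.097, -0.13, -0.10 and -0.10 for Cyp8b1, -0.022, -0.051, -0.028 and -0.028 for Cyp39a1, -0.034, -0.063, -0.048 and -0.050 for Hsd3b7, and -0.044, -0.073, -0.032 and -0.032 for Akr1c6. Cyp2c70 changed sign with spike-in totals only (-0.016) and lost its call with total reads (0.013, adjusted p = 0.538 by the exact test). These alternatives shift all genes, since the median of tested genes moved to -0.13 and -0.15 under the first 2 of them. Of all calls, 50.3% were higher in replicate 1 under TMM, 30.6% when total reads set the scale and 26.4% when spike-ins did. No paired analysis was possible because there is 1 group. The removal of the shortest isoforms was added after the data were seen. Depth was least for Cyp39a1, at 830 and 856 reads in replicates 1 and 2.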
